A study of Rattus norvegicus with 6 samples.

Results

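Kruppel-like factors (KLFs) are transcription factors that bind CACCC and GC-rich elements through zinc fingers at their C terminus. The 10 genes described here, Klf2, Klf3, Klf4, Klf5, Klf6, Klf7, Klf9, Klf10, Klf13 and Klf15, were taken by their symbols from the 18746 genes of the deposited tables. The family was selected on a measured value, the more than 2-fold rise of Klf2 in siNQO1 cells, so the differences of the members between the groups are given as a description. No p-value of a member is printed, and calls of members are only counted, beside the share of all genes called. All 10 members passed the filter on low counts. The groups were siNQO1 (3 samples), cells transfected with an siRNA against NQO1, and siCtrl (3 samples), cells transfected with a nontargeting siRNA. Both came from the culture labelled PC12, a line derived from a rat pheochromocytoma of the adrenal medulla, and polyadenylated RNA was sequenced. The labels call the reagents an shRNA and a control plasmid where the methods of the study describe siRNAs, and a single siRNA sequence against NQO1 was used, so effects of that sequence on other transcripts cannot be told apart from loss of NQO1. The study calls the samples of a group biological replicates, and the sources used here do not say whether each was a separate culture. The p-values cover the spread among the 6 libraries.

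Members of the family differ mainly in the cofactors that their N-terminal parts recruit. Klf2, Klf4, Klf5, Klf6 and Klf7 are grouped as mainly activating factors, Klf3 represses through the CtBP corepressors, and Klf9, Klf10 and Klf13 bind the corepressor Sin3a. In neurons, Klf4 and Klf9 restrain axon growth whereas Klf6 and Klf7 promote it, and in endothelium Klf2 and Klf4 follow flow. Fewer cells that express a gene and less RNA per cell cannot be told apart in such bulk samples.

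Promoter sequences credited to RefSeq (build GRCr8, 250 bases before and 50 after the start) matched 7 of the 10 members by symbol, and Klf2, Klf10 and Klf13 were not among them. The listed start lies at the outer end of the gene for Klf5, Klf6 and Klf9 and inside the gene for Klf3, Klf4, Klf7 and Klf15. The letters CACCC, the core of the element that KLFs bind, occurred on either strand in 5 of 7 members and in 54.9% of all 33469 promoters of the same length. The E-box CACGTG occurred in Klf6 and Klf15 and in 6.42% of all promoters, and TGACGT, the core of the cyclic AMP response element, in Klf9 and Klf15 and in 7.94%. TATAAA occurred in Klf4 and in 14.2% of all promoters, GGGCGG in Klf3, Klf6 and Klf7 and in 33.1%, and TGACNNNGC, the core of the antioxidant response element, in Klf6 and Klf15 and in 12.1%. In Klf15 the last of these overlaps the E-box. A match is a description of letters and not a site of binding. In Klf3, CACCC occurred at 128, 55, 42 and 18 bases before the start, and in Klf4, TATAAA occurred at 146 and 78. The following windows of 30 bases, 5′ to 3′ on the strand of the gene, show matches in capitals. They hold the farthest of these matches in Klf3 and in Klf4 (both on the opposite strand), both E-boxes and the TGACGT of Klf9.
Klf3 (chr14:43850937-43850966, minus strand): ttccgaagtacaGGGTGtgggcagaatctt
Klf15 (chr4:124522902-124522931, plus strand): cgcccgcggcgtCACGTGagcggtcggaga
Klf6 (chr17:69458517-69458546, minus strand): ctccaagctggtCACGTGgggggaggagga
Klf9 (chr1:230126555-230126584, plus strand): gggcctggattgTGACGTgatgggattctg
Klf4 (chr5:75078721-75078750, minus strand): tgattgtctattTTTATAagagtttacaac

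The libraries held between 28873824 and 39467230 reads in genes. Nqo1, the gene targeted, was at 80.8, 75.2 and 77.7 FPKM (fragments scaled to transcript length and to library depth) in siNQO1 and at 368.6, 320.5 and 345.3 FPKM in siCtrl, so that 22.6% of the siCtrl level remained. Correlations of log2 CPM (reads of a gene scaled to the library total after its adjustment by TMM) across genes were 0.994 within siNQO1, 0.986 to 0.993 within siCtrl and 0.984 to 0.990 between the groups. The library siCtrl replicate 2 stood apart from the other siCtrl libraries on the first principal component (44.4% of the variance), with a score of -5.08 against 32.2 and 20.7, toward the siNQO1 libraries at -16.0, -19.6 and -12.1. On the second component it stood apart from both groups, at -29.0 against 5.58 and 0.48 in siCtrl and 6.74, 4.28 and 12.0 in siNQO1. Results that depend on that library are given below with and without it. Leaving it out raised the number of genes called in general. At an adjusted p under 0.05 in edgeR, 2164 of 12615 genes were higher and 2036 lower without it. With all libraries these were 654 and 917 of 12420.

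The defining transcripts of chromaffin cells were nearly absent from these cells. The 10 of 12 chromaffin markers found in the table summed to 0.91 to 1.12 FPKM in siNQO1 and 0.92 to 1.17 FPKM in siCtrl. Tyrosine hydroxylase, Th, the first enzyme of catecholamine synthesis, averaged 0.057 ± 0.015 FPKM in siNQO1 and 0.077 ± 0.015 in siCtrl (SD, n = 3 each). Ddc was listed at 0 in every siNQO1 library and Phox2a in every siCtrl library. These values go against the label PC12. The 6 Schwann cell markers summed to 416.5 to 422.8 FPKM in siNQO1 and 469.6 to 536.5 FPKM in siCtrl, led by Sox10 (202 ± 8.15 FPKM in siNQO1 and 218 ± 17.6 in siCtrl) and S100b (171 ± 3.19 FPKM in siNQO1 and 236 ± 14.6 in siCtrl). Of these, S100b and Erbb3 were lower (log2 fold changes -0.45 and -0.43, adjusted p = 0.00329 and 0.00583 from edgeR). Markers of other KLF-rich cells were low: the 8 endothelial markers found in the table summed to 11.95 to 14.17 FPKM in siNQO1 and 13.21 to 13.95 in siCtrl, mostly Egfl7, with Erg, Emcn and Cldn5 listed at 0 in every siCtrl library, and 8 leukocyte markers summed to 2.67 to 3.67 FPKM in siNQO1 and 3.15 to 4.90 FPKM in siCtrl. The 5 fibroblast markers summed to 50.1 to 53.5 FPKM in siNQO1 and 54.1 to 54.3 in siCtrl, mostly Pdgfra, and 1 of 4 tested, Pdgfrb, was higher, a call lost in edgeR without any 1 siNQO1 library or siCtrl replicate 3 (highest adjusted p = 0.0921). S100b and Erbb3 were called with any 1 library left out. The part of these shifts in the values of the KLFs was not tested.

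Klf4, a factor of epithelial differentiation and cellular reprogramming, was the most abundant member. It was at 56.2, 54.0 and 53.8 FPKM in siNQO1 and at 40.6, 49.7 and 44.1 FPKM in siCtrl. The siNQO1 libraries lay close together and above each siCtrl library, among which replicate 2 was the highest. Klf10, an early target of TGF-beta, came next with 18.2, 17.4 and 17.3 FPKM in siNQO1 and 18.5, 19.6 and 19.2 FPKM in siCtrl. These groups did not overlap on the FPKM scale but overlapped in log2 CPM after scaling of the libraries. Klf4 and Klf10 together made up 77.8% to 78.9% of the summed FPKM of the 10 members in siNQO1 and 79.8% to 81.6% in siCtrl. The sum itself was 94.4, 90.7 and 91.5 FPKM in siNQO1 and 74.1, 85.5 and 77.6 FPKM in siCtrl, so the groups did not overlap. This sum holds Klf4, at a mean of 54.7 FPKM in siNQO1 and 44.8 FPKM in siCtrl. It also holds Klf2, which chose the family, at means of 5.40 and 2.31 FPKM. A rise of the family as a whole is therefore not read from the sum.

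The remaining 8 members were at mean levels of 0.55 to 5.40 FPKM in siNQO1 and 0.64 to 4.37 FPKM in siCtrl. In siCtrl the order after Klf4 and Klf10 was Klf3, Klf2, Klf5, Klf7, Klf6, Klf9, Klf15 and Klf13. From Klf2 to Klf15 each neighbor in this order overlapped the next in its range over libraries. In siNQO1 Klf2 stood at rank 3 of 10 (5.40 ± 0.56 FPKM, SD, n = 3) and overlapped Klf3, Klf15 stood at rank 6 of 10 against rank 9 in siCtrl, and Klf5 at rank 8 against rank 5. Klf13, a regulator of chemokine expression in T cells, was the lowest and rested on 11 to 18 reads per library. Its ratio of reads to FPKM, which follows the length of the gene model, was 11.8% of that of Klf3, and that of Klf2 was 21.6%, so both genes give few reads for their level.

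**Figure D1:**
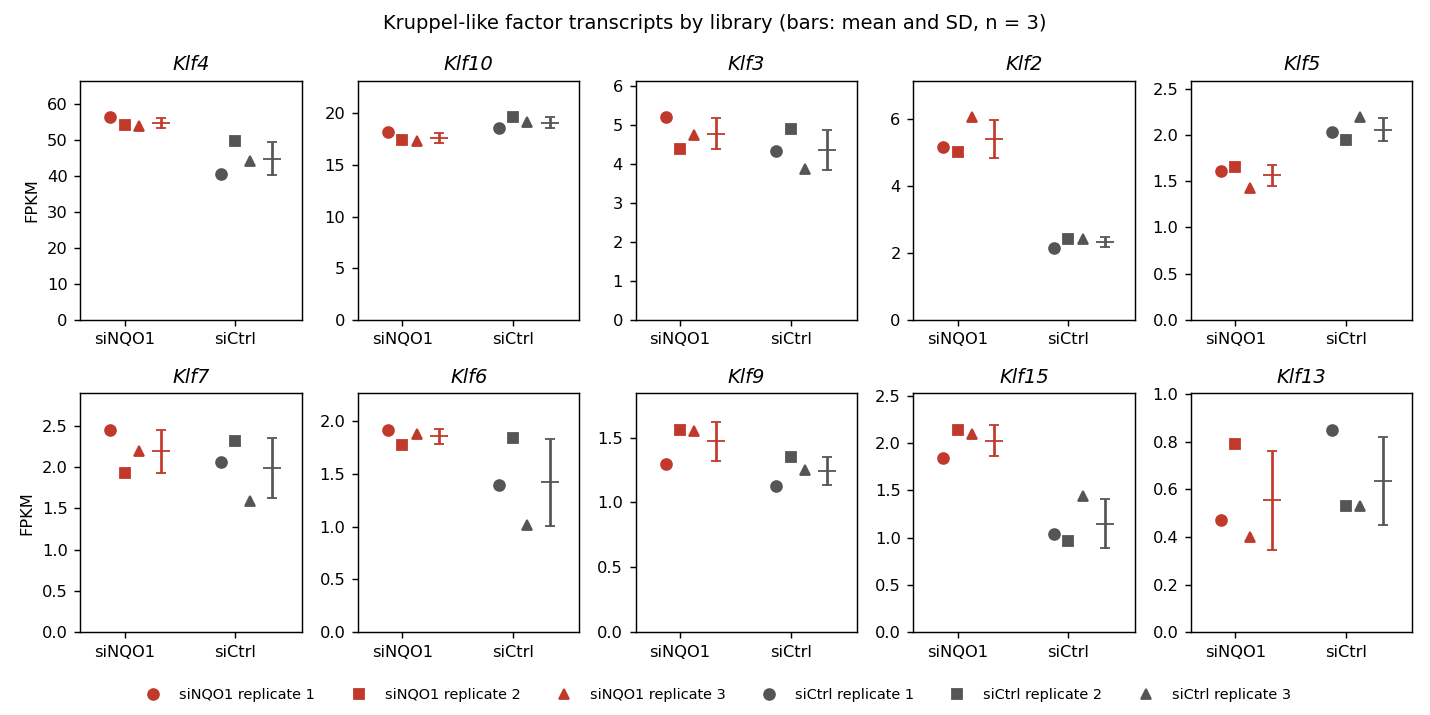
FPKM of the 10 Kruppel-like factors in each library. Each panel is 1 gene with its own vertical axis from 0, points are libraries (red siNQO1 on the left, gray siCtrl on the right) and bars give the mean and SD of 3 libraries. In Klf2 the siNQO1 libraries sit between 5.00 and 6.04 FPKM, above the siCtrl libraries at 2.14 to 2.40 FPKM.

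Klf2, known for its induction by flow in endothelium and for quiescence of lymphocytes, was the member that led to the choice of this family. Its transcript (ENSRNOG00000014205, chromosome 16) had 210, 201 and 291 reads in siNQO1 and 75, 103 and 103 reads in siCtrl. On the FPKM scale these were 5.16, 5.00 and 6.04 in siNQO1 and 2.14, 2.40 and 2.40 in siCtrl. Every siNQO1 library was more than 2-fold above every siCtrl library. The log2 fold change was 1.23 with a standard error of 0.13, the rank 46 from the top among 12420 genes tested. With any 1 library left out it stayed between 1.14 and 1.27. Eps15l1, which encodes an endocytic adaptor and overlaps Klf2 in the RefSeq table, had a log2 fold change of 0.10 and an adjusted p of 0.384 in edgeR. In the same table, 5 of the 10 members overlap another gene, and whether the counting used strand is not given in the sources used here.

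Klf15, which is induced by glucocorticoids and drives amino acid catabolism in muscle and liver, was the member just outside the 2-fold line. It was at 1.84, 2.14 and 2.10 FPKM in siNQO1 and at 1.04, 0.96 and 1.44 FPKM in siCtrl. The siNQO1 libraries were all higher, and siCtrl replicate 3 lay nearest to them. Its fold change was 1.77 (log2 0.83, standard error 0.18), against 2.35 for Klf2. The log2 value was 1.04 without siCtrl replicate 3 and 0.70 without siCtrl replicate 2. Klf4 had a log2 fold change of 0.30 (standard error 0.073), which was 0.21 without siCtrl replicate 1 and 0.38 without siCtrl replicate 2. On the log2 CPM scale the siNQO1 libraries of Klf4 spanned 0.090 and the siCtrl libraries 0.29.

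Klf5, a factor of proliferating epithelium, was the member whose libraries were lower in siNQO1 without overlap on both scales. Its FPKM was 1.61, 1.65 and 1.43 in siNQO1 and 2.03, 1.95 and 2.19 in siCtrl. The siNQO1 libraries all lay under the lowest siCtrl library, and the log2 fold change was -0.38 with a standard error of 0.12. Klf6, a growth suppressor, was at 1.92, 1.78 and 1.88 FPKM in siNQO1 and at 1.40, 1.84 and 1.02 FPKM in siCtrl. Here siCtrl replicate 2 lay among the siNQO1 libraries and the other siCtrl libraries below them. The log2 fold change of Klf6 was 0.41 (standard error 0.19), with 0.64 without siCtrl replicate 2 and 0.22 without siCtrl replicate 3. The siCtrl libraries of Klf6 spanned 0.81 in log2 CPM and the siNQO1 libraries 0.12.

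Klf7, which in mouse drives the neurotrophin receptor TrkA in sensory neurons, was at 2.45, 1.93 and 2.19 FPKM in siNQO1 and at 2.06, 2.31 and 1.59 FPKM in siCtrl. Klf3 was at 5.20, 4.39 and 4.76 FPKM in siNQO1 and at 4.33, 4.90 and 3.88 FPKM in siCtrl. Klf9, an early target of thyroid hormone, was at 1.30, 1.56 and 1.55 FPKM in siNQO1 and at 1.13, 1.35 and 1.25 FPKM in siCtrl. The groups overlapped in each of these 3 genes, with log2 fold changes of 0.16, 0.14 and 0.25 (standard errors 0.16, 0.10 and 0.14). Klf10 had a log2 fold change of -0.10 (standard error 0.056). Klf13 was at 0.47, 0.79 and 0.40 FPKM in siNQO1 and at 0.85, 0.53 and 0.53 FPKM in siCtrl, which overlap, with a log2 fold change of -0.19 and a standard error of 0.40. Among the siCtrl libraries, replicate 2 had the highest log2 CPM in 6 of 10 members, replicate 3 in 3 and replicate 1 in 1.

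**Figure D2:**
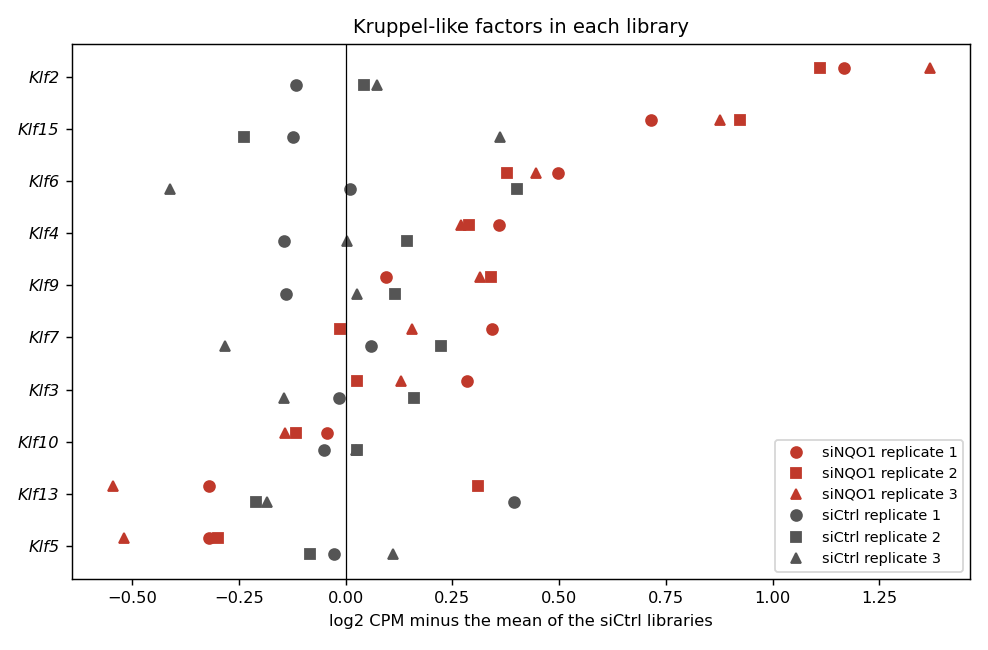
Log2 CPM of each Kruppel-like factor in each library minus the mean of the siCtrl libraries of that gene. Red points are siNQO1, gray points are siCtrl, and the shape gives the replicate. Klf2 and Klf15 show all siNQO1 libraries to the right of all siCtrl libraries, whereas in Klf6 the gray square of siCtrl replicate 2 lies among the red points.

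Over the 10 members, 7 log2 fold changes were positive and 3 negative, with a median of 0.20 against 0.0099 over all genes tested. In the quasi-likelihood test of edgeR across all genes, 3 members were called higher at an adjusted p under 0.05 (Klf2, Klf4 and Klf15) and 0 lower, where 5.27% of the 12420 genes tested were called higher and 7.38% lower. Past a fold of 2, Klf2 was called, and 0.242% of all genes were called higher. The groups did not overlap, on the log2 CPM scale, in 3 members that were higher and 1 that was lower, where 16.3% of all genes were higher and 17.9% lower without overlap. Since the rise of Klf2 in this comparison chose the family, nothing is read from these counts. All 3 calls were made without siCtrl replicate 2 as well, where Klf5 and Klf6 were called too. In that setting 2164 of 12615 genes tested were called higher and 2036 lower. Klf2 was called without any 1 of the 6 libraries, Klf15 without siCtrl replicate 2 or 3, and Klf4 without siCtrl replicate 2. Without a library other than siCtrl replicate 2, 167 to 346 of all genes were called higher and 351 to 662 lower. These calls too rest on the comparison that chose the family, and nothing is read from them.

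**Figure D3:**
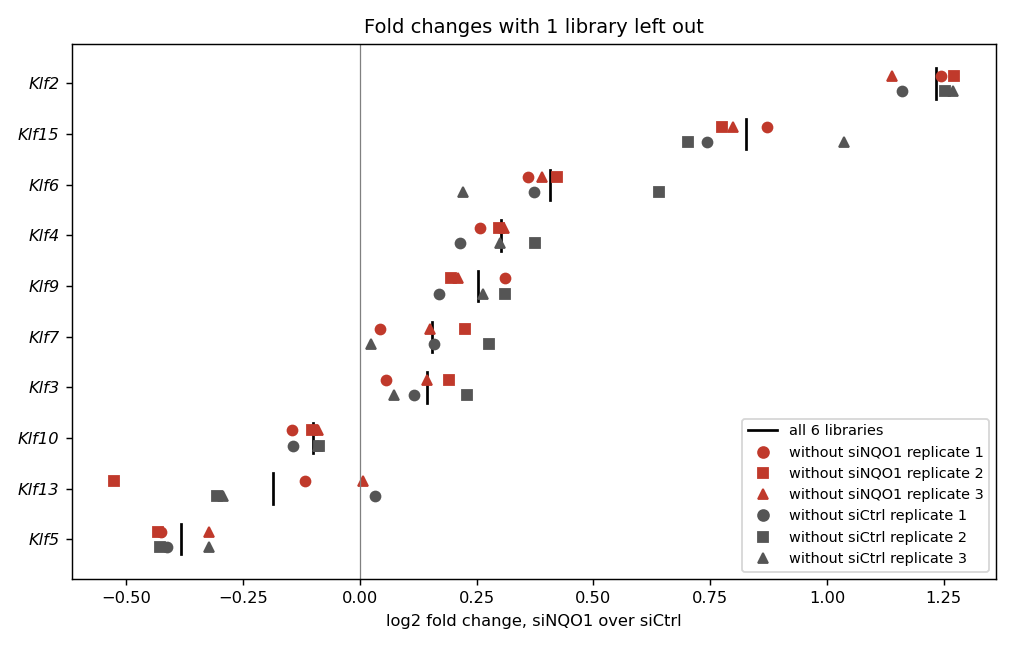
Log2 fold change (siNQO1 over siCtrl) of each Kruppel-like factor with all libraries (black bars) and with 1 library left out (points, colored by the group and shaped by the replicate left out). Klf2 stays between 1.14 and 1.27, whereas Klf6 moves to 0.64 and Klf15 to 0.70 without siCtrl replicate 2.

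Other KLF and SP factors were measured in the same libraries. Of 12 other KLF and SP factors found in the table, 8 were tested and 0 were called in either direction by edgeR, with log2 fold changes from -0.036 in Klf16 to 0.12 in Sp4 and a median of 0.018. Klf16 was as abundant as Klf10, at 17.8 ± 0.561 FPKM in siNQO1 and 18.4 ± 0.734 FPKM in siCtrl (SD, n = 3 each). Sp1, which binds GC boxes in many promoters, was at 10.6 ± 0.305 FPKM in siNQO1 and 10.1 ± 0.527 FPKM in siCtrl. Klf11, the closest relative of Klf10, had a log2 fold change of -0.022 (standard error 0.084). Klf8, Klf14, Sp5 and Sp6 did not pass the filter on low counts. Of these relatives, 0 had an unadjusted p under 0.05 in edgeR and 0 were called by DESeq2.

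**Figure D4:**
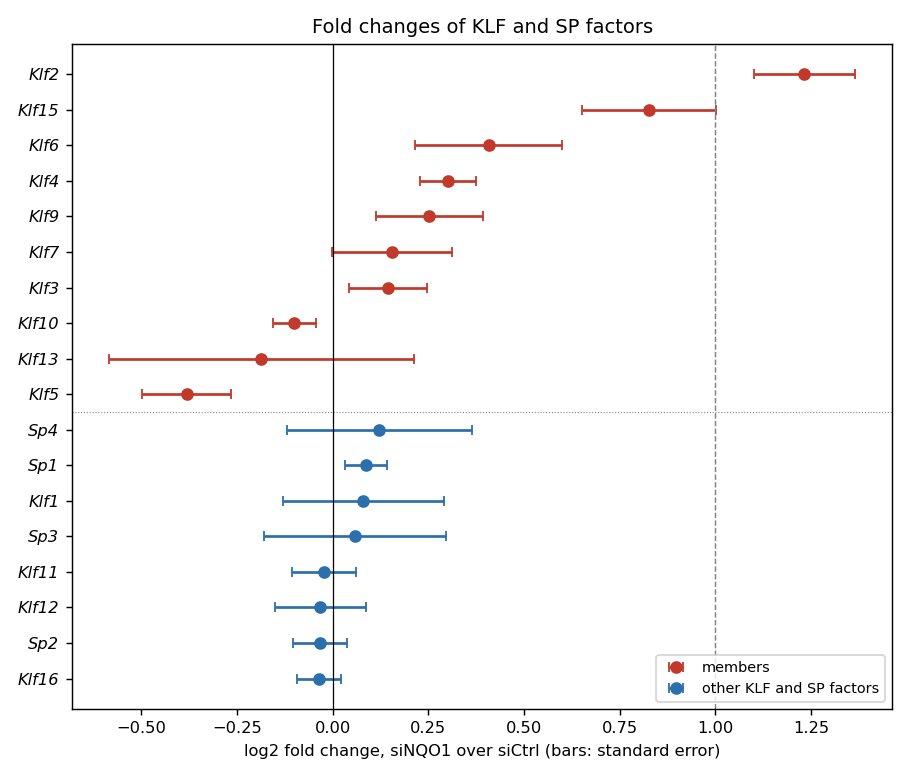
Log2 fold change (siNQO1 over siCtrl) of the 10 members (red, above the dotted line) and of 8 other KLF and SP factors (blue), with bars of 1 standard error and a dashed line at a fold of 2. Klf2 at 1.23 lies beyond the dashed line, and the blue points lie between -0.036 and 0.12.

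Regulators that are known to act on Klf2 were next. In endothelium MEKK3 (Map3k3), Map2k5 and ERK5 (Mapk7) activate MEF2 factors on the Klf2 promoter, and the CCM complex holds this arm back. Of 16 genes of this arm and complex, 1 was lower, 0 were higher and 15 did not pass in edgeR. The lower one was Ccm2, a scaffold of the CCM complex, at 24.2 ± 0.991 FPKM in siNQO1 and 34.1 ± 1.55 FPKM in siCtrl (SD, n = 3 each). The difference on the log2 scale was -0.48 with a standard error of 0.064 and an adjusted p of 0.00287 in edgeR, and it was called with any 1 library left out. Map3k3 and Hdac5 had log2 fold changes of -0.072 and -0.12, and Mapk7 was at 0.17 FPKM in siNQO1 and 0.25 FPKM in siCtrl. Of 10 ubiquitin ligases and deubiquitinases that act on KLF proteins, 1 was lower and 0 higher in edgeR. This was Vhl, the ligase subunit that marks HIF and, in human cells, KLF4, at 10.3 ± 0.445 FPKM in siNQO1 and 17.1 ± 0.708 FPKM in siCtrl (SD, n = 3 each). Its log2 ratio was -0.72, with an adjusted p of 0.000501 in edgeR, and it too was called with any 1 library left out. Smurf1, a ligase of KLF2, and Bap1, which removes ubiquitin from KLF5, had log2 fold changes of -0.14 and -0.10. Without siCtrl replicate 2, Hdac5, Smurf1 and Bap1 were called lower in edgeR, with log2 fold changes of -0.19, -0.19 and -0.15 (adjusted p = 0.00685, 0.00456 and 0.0229). In that setting 2036 of all 12615 genes tested were called lower.

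Among cofactors, 2 of 13 corepressors and coactivators tested were lower and 0 higher in edgeR. Both were histone acetyltransferases, Kat2a (GCN5) and Kat2b (PCAF), with log2 fold changes of -0.26 and -0.33 (adjusted p = 0.0236 and 0.0430 from edgeR). Ctbp1, the partner of Klf3, and Sin3b did not pass, at 124 ± 5.87 and 130 ± 1.37 FPKM in siNQO1 and 138 ± 3.94 and 128 ± 10.0 FPKM in siCtrl. Without siCtrl replicate 2, Ctbp1 was called lower in edgeR (log2 fold change -0.17, adjusted p = 0.0196). The calls of Kat2a and Kat2b were lost without siNQO1 replicate 2 or 3 or siCtrl replicate 3 (highest adjusted p = 0.0875 and 0.165 from edgeR).

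Known target genes of Klf2 from endothelium and lymphocytes were mostly low in these cells. Of 15 found in the table, 9 were tested, 8 of which did not pass and 0 were lower in edgeR. Endothelial nitric oxide synthase, Nos3, was at 0.32 FPKM in both groups. The antioxidant enzyme Hmox1 and the cell cycle inhibitor Cdkn1a were abundant and had log2 fold changes of 0.0056 and 0.11. Of 5 tested target genes of Klf15 in amino acid and glucose metabolism, the branched-chain aminotransferase Bcat2 was higher and the aspartate aminotransferase Got1 lower (log2 fold changes 0.26 and -0.23, adjusted p = 0.0350 and 0.0224 from edgeR). The call of Bcat2 was lost with each library left out other than siCtrl replicate 2, and that of Got1 with any siNQO1 library or siCtrl replicate 3 left out (highest adjusted p = 0.127 and 0.0779 from edgeR).

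Listed genes of hormone and growth factor pathways that induce members were called in both directions, and no pathway was tested as a whole. Of 13 genes tested in the list of the glucocorticoid receptor and its targets (Nr3c1 and Tsc22d3 are each listed under 2 identifiers), 3 were higher, 2 lower and 8 not called in edgeR. Cebpd, a factor of the acute response, was at 20.2 ± 0.918 FPKM in siNQO1 and 12.6 ± 0.387 FPKM in siCtrl (SD, n = 3 each; log2 fold change 0.69, adjusted p = 0.00155 from edgeR). Ddit4 rose by 0.33 on the log2 scale and the phosphatase Dusp1 and Errfi1 had log2 fold changes of -0.39 and -0.42. The third higher gene, 1 of the 2 identifiers of Tsc22d3, rose by 0.22 and is named because it completes the count. Its call was lost with each library left out other than siCtrl replicate 2 (highest adjusted p = 0.172 from edgeR). The more abundant of the 2 identifiers of Nr3c1, the receptor itself, had a log2 fold change of 0.22 and was not called. Without siCtrl replicate 2 it was 0.48 and called higher (adjusted p = 0.000171 from edgeR). Fkbp5, a sensitive target of the receptor, was at 16.5 ± 0.537 FPKM in siNQO1 and 16.7 ± 0.429 FPKM in siCtrl. Of 15 early targets of TGF-beta and BMP, Junb was higher (0.27) and the inhibitory Smad7 and the corepressor Tgif1 lower (-0.37 and -0.28), and 11 were not called. Id3 and Ctgf were abundant and had log2 fold changes of 0.16 and 0.052. Ddit4, Dusp1, Errfi1, Junb, Smad7 and Tgif1 each lost the call in edgeR without siNQO1 replicate 2. All of these but Errfi1 also lost it without others, namely siNQO1 replicate 1 (Ddit4, Junb), siNQO1 replicate 3 (Ddit4, Dusp1, Junb, Tgif1), siCtrl replicate 1 (Ddit4) and siCtrl replicate 3 (Dusp1, Smad7, Tgif1), with a highest adjusted p of 0.153, whereas Cebpd kept its call with any 1 library left out.

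Clock genes, of which Klf9, Klf10 and Klf15 are known outputs, gave 3 higher of 17 tested and 0 lower in edgeR. The repressor Cry2 was at 15.4 ± 0.605 FPKM in siNQO1 and 12.5 ± 0.0907 FPKM in siCtrl (SD, n = 3 each; log2 fold change 0.32, adjusted p = 0.00710 from edgeR), and Tef and Per3 rose by 0.25 and 0.28. Tef and Per3 lost their calls without any 1 siNQO1 library or siCtrl replicate 3, and Per3 also without siCtrl replicate 1 (highest adjusted p = 0.108 and 0.201 from edgeR), and Cry2 did not. In limma on log2(FPKM + 1), the adjusted p was 0.0510 for Tef and 0.105 for Per3. Nr1d1 and Dbp were abundant and had log2 fold changes of 0.20 and 0.068. Nr1d1 was called higher without siCtrl replicate 2 (0.15, adjusted p = 0.0285 from edgeR). Of 6 tested genes of axon growth under KLF control, the neurotrophin receptor Ntrk2 was lower (-0.24, adjusted p = 0.0471 from edgeR) and 0 were higher, and its call was lost without any 1 library other than siCtrl replicate 2 (highest adjusted p = 0.129) and in both limma fits (adjusted p = 0.0863 and 0.0794). Of the pluripotency partners of Klf4, 3 were tested and 0 called in edgeR or DESeq2, where 2 had an unadjusted p under 0.05 in edgeR. Sox2 was at 81.0 ± 5.18 FPKM in siNQO1 and 88.7 ± 7.53 FPKM in siCtrl, and Myc at 13.3 ± 0.405 FPKM in siNQO1 and 12.0 ± 0.408 FPKM in siCtrl (SD, n = 3 each).

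**Figure D5:**
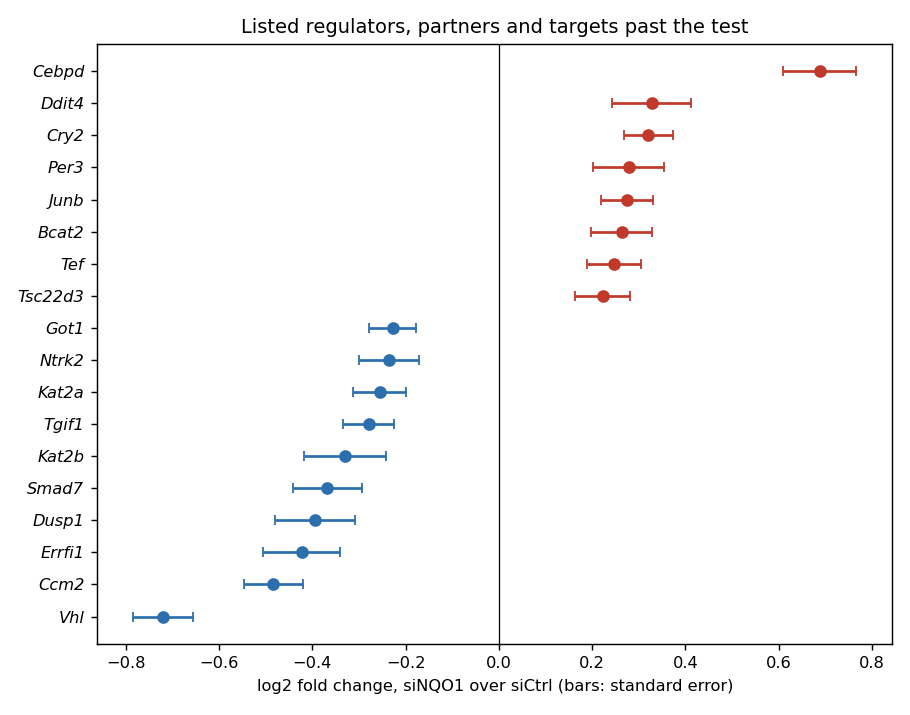
Log2 fold change (siNQO1 over siCtrl) of 18 listed regulators, partners and targets called by edgeR at an adjusted p under 0.05, with bars of 1 standard error (red higher, blue lower in siNQO1). Values run from -0.72 in Vhl to 0.69 in Cebpd.

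Over all 11 lists, 110 genes were tested, of which 9 (8.18%) were higher and 10 (9.09%) lower, beside 5.27% and 7.38% of all genes. Where a list above had 0 calls in a direction in edgeR, DESeq2 called 0 there too. At an unadjusted p under 0.05 in edgeR the numbers in that direction were 3 higher corepressors and coactivators, 3 higher ligases and deubiquitinases, 1 higher axon growth gene and 1 lower clock gene, and 0 in the MEKK3 arm and the Klf2 targets. The median log2 fold change was 0.0065 in the lists and 0.0099 over all genes tested. Without siCtrl replicate 2 the listed genes called were 24 higher and 19 lower, beside 2164 and 2036 of all 12615 genes tested there. Without 1 of the other libraries they ran from 3 to 6 higher and from 2 to 9 lower, beside 167 to 346 and 351 to 662 of all genes.

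The genes whose log2 CPM followed that of Klf2 most closely over the 6 libraries were Cstb, Cebpd, Tgfbr2, Cry2 and Lpcat2, with Pearson correlations of 0.997, 0.996, 0.996, 0.995 and 0.993. These correlations rest on 6 points in 2 groups and are a description. Cstb, a cathepsin inhibitor, was at 301, 301 and 311 FPKM in siNQO1 and at 256, 259 and 254 FPKM in siCtrl. The acyltransferase Lpcat2 was at 20.4, 20.4 and 20.9 FPKM in siNQO1 and at 12.2, 12.8 and 12.4 FPKM in siCtrl. Tgfbr2, the type II receptor of TGF-beta, was at 5.58, 5.49 and 5.69 FPKM in siNQO1 and at 4.68, 4.78 and 4.72 FPKM in siCtrl. In all 5 genes the groups did not overlap and siCtrl replicate 2 lay with the other siCtrl libraries, as in Klf2. Both traits come with the choice of these genes by their correlation with Klf2, and nothing is read from them.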

How the data were processed

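Polyadenylated RNA of 3 siNQO1 and 3 siCtrl samples was sequenced on strand-specific paired-end libraries. The authors trimmed the reads, aligned them to RGSC6 with TopHat2 and counted uniquely mapped reads per gene, and the deposited read counts are whole numbers without normalization. FPKM values, also deposited by the authors, scale these to transcript length and depth. The submitters' processing notes also name bcl2fastq and edgeR. No source used here names the counting tool or its strand setting. Reads of near-identical copies or overlapping genes may be shared.

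Counts were compared in R 4.3.3 with edgeR 4.0.16 (filterByExpr, TMM, glmQLFit and glmQLFTest, Benjamini-Hochberg adjustment over 12420 genes), with an adjusted p under 0.05 and, where named, a fold over 2. Log2 CPM used library totals scaled by TMM and a prior count of 2. The standard errors of log2 fold changes were derived from the test, as the absolute log2 fold change over the square root of its F statistic. Alternatives were RLE scaling, no filter, DESeq2 1.42.0, limma 3.58.1 on log2(FPKM + 1) and log2(FPKM + 0.1), the replicate number as a block, and leaving out each library. Members and lists were chosen with earlier results of these data known. Named are all members, of each list up to 4 called genes with the smallest p and up to 2 abundant genes not called, and the 5 genes most correlated with Klf2. Others named (Mapk7, Krit1, Wwp1, Nos3, Klf11, Sp4, Eps15l1, Tsc22d3, the markers and those under the filter) were chosen after their values were seen. Motif matches were counted in RefSeq promoters. A few listed genes are counted in their lists but not reported here.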

Additional observations from a re-analysis of the deposited data

How the results depend on the processing

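The directions of the 10 members held under RLE scaling, no filter, DESeq2, both limma fits and the replicate block, and Klf2, Klf4 and Klf15 were the 3 members called under each of these. Over all genes these settings called 1350 to 1807. With 1 library left out, 1 to 5 members were called, and Klf13 ran from -0.53 to 0.033 in log2 fold change. Between 518 and 4200 genes were called with 1 library left out, against 1571 with all, and past a fold of 2 between 18 and 300 against 54. Past that fold, DESeq2 called 27 genes and limma on log2(FPKM + 1) called 9, where the pseudocount shrinks the folds of low genes. DESeq2 called 5 clock genes higher against 3 in edgeR, Nr1d1 among them. Of the listed genes, 5 to 43 were called with 1 library left out, against 19. Hmox1 was at -0.0034 in both limma fits and from -0.041 to 0.073 with 1 library left out, Sin3b from -0.040 to 0.073, Cdkn1b from -0.31 to 0.087 and Dbp from -0.013 to 0.15, none of them called. Same-numbered libraries did not deviate together in every pair (correlations of -0.038, 0.16 and 0.057). Pairs with unlike numbers were not set beside these, so the values cannot tell whether a number marks a shared culture or batch. The replicate block called 1350 genes and 16 of the listed genes. Kat2b, Ntrk2 and Per3 were no longer called under the block (adjusted p = 0.0677, 0.0515 and 0.0702 from edgeR). Per3 and Ntrk2 were not called in either limma fit (Per3 at 0.101 with a pseudocount of 0.1), and Tef not in that with a pseudocount of 1. Klf13 rested on 11 to 18 reads per library, with a standard error of 0.40.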
